A study of Mus musculus with 6 samples.

Results

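The AP-1 transcription factors measured here were 9 genes of the Batf, Jun and Fos families: Batf, Batf3, Jun, Junb, Jund, Fos, Fosb, Fosl1 and Fosl2. They were chosen by gene symbol, through the RefSeq accession that the array files give for each probe, and not by their values. They had 13 probes, out of 55371 usable probes and 22565 named genes on the array. The cells were TEa cells, CD4+ T cells with a transgenic T cell receptor (Vα2+Vβ6+), carrying the CD45.2 mark and either wild type (WT) or labelled Irf4-/-. B6.SJL CD45.1+ mice received these cells on day -1 and a Balb/c heart graft on day 0. The transferred cells were recovered by sorting the spleen on day 6. There were 3 groups of 2 arrays. The WT IgG group was WT cells in recipients labelled as given rat IgG, at a dose that is not stated. The KO-labelled IgG group was cells labelled Irf4-/- in recipients given 400 µg rat IgG on days 0, 3 and 5. The KO-labelled blockade group, called blockade for short, was cells labelled Irf4-/- in recipients given 200 µg anti-PD-L1 and 200 µg anti-CTLA-4 (clone 9D9) on those days. Both arrays of a group came from independent experiments, and the one whose label calls it a repeat is array 2. How Irf4 was deleted, how many mice each array stands for and the age of the mice were not given in the sources used here.

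AP-1 is a dimer of basic leucine zipper (bZIP) proteins, in which a Jun protein pairs with a Fos protein, with another Jun protein or with a Batf protein. Fos and Jun are immediate early genes: their transcripts appear within minutes of T cell receptor signalling through MAP kinases, and also when tissue is dissociated and cells are handled or sorted. Batf lacks a transactivation domain, and in activated T cells Batf-Jun dimers bind composite DNA elements together with Irf4, which binds such elements weakly on its own. In T cells AP-1 also cooperates with NFAT, and Jun is known to counter T cell exhaustion when it is supplied in excess.

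The signal of Irf4, the gene named in the genotype, went against the labels' direction. Its brighter probe read 673 and 1069 on WT IgG arrays 1 and 2, 2128 and 3073 on the KO-labelled IgG arrays, and 2071 and 1703 for KO-labelled blockade. Its other probe read 73.6 and 80.3, 226 and 221, and 218 and 163 in the same order. All 4 arrays labelled KO were above both WT arrays. Whether these probes lie within the deleted exons is not known, so they check nothing, and each direction below is between arrays as labelled. T cell markers were well above background on all arrays (12 of 12 measured). The KO-labelled IgG arrays stood apart: 65.8% and 75.2% of probes were well above background there, against 34.8% to 40.8% on the other 4. Summed intensities of B cell markers were 226 to 232 on WT, 1085 to 5321 on KO-labelled IgG and 386 to 398 on blockade arrays, and those of monocyte, macrophage and neutrophil markers were 4261 to 5179, 8086 to 67652 and 4360 to 7172. Those of erythroid and platelet markers were 160 to 647, 1417 to 45719 and 5801 to 9340. Those of dendritic cell markers were 7908 to 14223, 26581 to 26738 and 5129 to 7724, with 3, 7 and 3 of 10 well above background on both arrays. On both arrays of a group, 2 of 10 B cell markers were well above background in WT, 9 in KO-labelled IgG and 2 in blockade, and 5, 9 and 6 of 11 monocyte, macrophage and neutrophil markers. The B cell marker Cd79a and the myeloid markers Lyz2 and Cd14 were among those not well above background on any WT or blockade array. Fewer cells of a type and less RNA per cell cannot be told apart in such bulk samples.

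Sequences upstream of Jun, Fos and Batf are shown because these members had the largest log2 fold changes among those that passed the intensity minimum below, and were chosen after those values were seen. RefSeq's promoter table (GRCm38.p6, mouse) held 8 of the 9 members, all but Fosl1. Each line gives the 250 bases before the gene's start, 5′ to 3′ on the gene's strand, with matches to TGACNTCA or TGACG in capitals.
Jun, chr4:95052223-95052472, minus strand: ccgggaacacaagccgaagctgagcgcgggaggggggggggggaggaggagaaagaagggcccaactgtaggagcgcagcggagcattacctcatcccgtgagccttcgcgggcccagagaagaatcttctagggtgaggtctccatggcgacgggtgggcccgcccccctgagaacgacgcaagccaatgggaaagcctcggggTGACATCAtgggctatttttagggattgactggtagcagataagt
Fos, chr12:85473640-85473889, plus strand: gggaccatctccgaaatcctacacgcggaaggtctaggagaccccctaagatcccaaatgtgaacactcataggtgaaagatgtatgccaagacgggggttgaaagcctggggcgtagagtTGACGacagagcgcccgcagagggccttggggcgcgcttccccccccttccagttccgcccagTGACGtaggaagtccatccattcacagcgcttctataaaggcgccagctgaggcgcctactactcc
Batf, chr12:85686470-85686719, plus strand: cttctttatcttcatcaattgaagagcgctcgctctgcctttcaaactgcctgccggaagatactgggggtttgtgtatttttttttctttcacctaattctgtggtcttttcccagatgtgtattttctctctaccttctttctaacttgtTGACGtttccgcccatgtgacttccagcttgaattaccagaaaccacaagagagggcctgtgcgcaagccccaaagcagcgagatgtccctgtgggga
The motifs below were searched on both strands, except TGACNTCA, which was searched on the gene's strand alone. The AP-1 consensus TGANTCA was in 0 of the 8 members' windows and in 6.75% of 32851 promoter windows of that length. On the gene's strand, the related TGACNTCA was found in the Jun window alone, as TGACATCA at 45 to 38 bases before the start. It was in 4.61% of all windows on that strand. The shorter TGACG, the first part of a cyclic AMP response element, was in Fos (2 matches), Fosb, Junb and Batf, and in 17.8% of all windows. The CArG box, the core of a serum response element, was in 0 of 8 and in 1.47%. No window held matches to more than 1 of these motifs among the members. A match describes letters only, and a missing match says nothing about binding.

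Values are given first as the scanner's processed signal, a linear intensity before any scaling between arrays. For the comparisons, the 10225 probes whose mean log2 intensity reached 8 (an intensity of 256) were quantile-normalised among themselves. Of the 13 AP-1 probes, 6 passed that minimum: those of Batf, Jun and Fos, 1 of the 2 for Junb and both for Jund. The 7 others were the probes of Batf3 and Fosl1, both probes of Fosb, both of Fosl2 and the second of Junb. Intensities of different probes depend on the probe, so levels are compared between arrays for 1 probe at a time and not between genes.

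**Figure D1:**
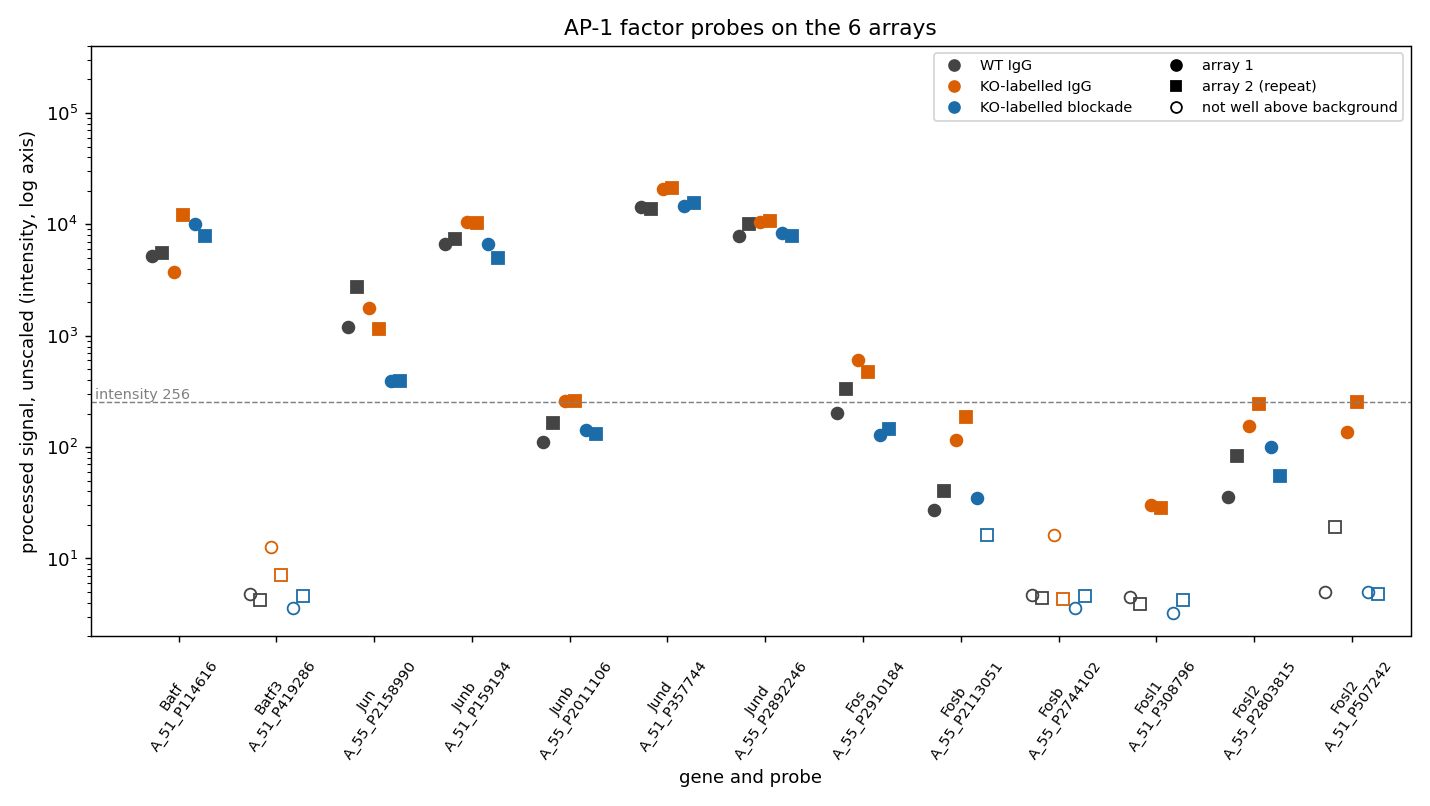
Unscaled processed signal (intensity, log axis) of each of the 13 AP-1 probes on the 6 arrays; each point is 1 array, open symbols are signals not well above background, and the dashed line is the minimum of 256. Jun was at 391 on both KO-labelled blockade arrays and between 1161 and 2752 on the other 4, and Fosl1 was well above background on the KO-labelled IgG arrays alone.

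On the quantile scale, 0 of the 6 probes passed limma's test (adjusted p under 0.05 over all 10225 probes) in any of the 3 comparisons. Of all probes, 2.41% passed between KO-labelled IgG and WT IgG, 0.900% between KO-labelled blockade and KO-labelled IgG, and 0.724% between KO-labelled blockade and WT IgG. At an unadjusted p under 0.05, 2 of the 6 AP-1 probes stood out in each comparison, against 23.3%, 28.6% and 19.0% of all probes, so these counts are near the background. Between blockade and KO-labelled IgG, 1 of the 2 was Fos, which reached the intensity minimum only through KO-labelled IgG. The pairs of comparisons share arrays, so their values are not independent of each other. With 2 arrays a group and 3 residual degrees of freedom, the 95% intervals of single members were wide.

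**Figure D2:**
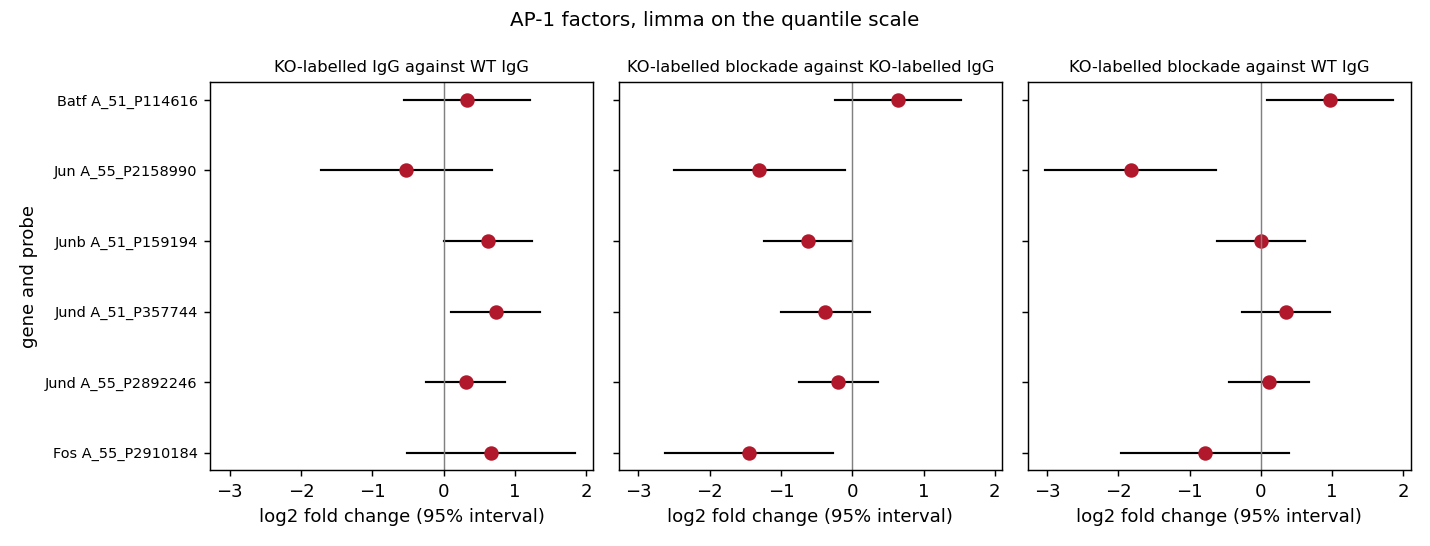
Log2 fold change of the 6 AP-1 probes that passed the intensity minimum, with limma's unadjusted 95% interval, in the 3 comparisons on the quantile scale. The interval of Jun lay below 0 in both comparisons of the blockade arrays, from -2.50 to -0.11 against KO-labelled IgG and from -3.03 to -0.63 against WT IgG, and no probe passed after adjustment.

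Jun, the founding member of the Jun family and the partner of both Fos and Batf proteins, had its lowest signal on the blockade arrays. It read 1187 and 2752 on WT IgG arrays 1 and 2, 1760 and 1161 on the KO-labelled IgG arrays, and 391 on both blockade arrays. Both blockade arrays lay below the 4 others, while the WT and KO-labelled IgG arrays overlapped. On the quantile scale its log2 levels were 10.38 and 11.16 for WT IgG, 10.92 and 9.58 for KO-labelled IgG, and 8.74 and 9.14 for blockade. Blockade against WT IgG gave a log2 fold change of -1.83 (SE 0.48, 3.55-fold lower, limma adjusted p = 0.143, unadjusted 0.0101). Blockade against KO-labelled IgG gave -1.31 (SE 0.48, 2.47-fold lower, limma adjusted p = 0.154, unadjusted 0.0375). KO-labelled IgG against WT IgG gave -0.52, with an interval from -1.72 to 0.68. When 1 array was left out, the value against KO-labelled IgG lay between -2.00 (without KO-labelled IgG array 2) and -0.64 (without KO-labelled IgG array 1), and that against WT IgG between -2.20 and -1.43, and none of these passed. Before scaling and on the quantile scale, blockade was lowest in level, and the 2 IgG groups did not differ beyond their spread. Of all probes, 13.7% likewise had both blockade arrays below the 4 others on the quantile scale. That order did not hold with each array's 75th percentile subtracted from its log2 values. KO-labelled IgG array 2, at 1.95, was then below both blockade arrays, at 2.03 and 2.52.

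Fos, the founding member of the Fos family, which binds DNA only as a partner of a Jun protein, was also lowest on the blockade arrays. It read 201 and 329 on the WT IgG arrays, 604 and 476 on the KO-labelled IgG arrays, and 128 and 145 for blockade. The 3 groups did not overlap in intensity, with KO-labelled IgG highest and blockade lowest, as in 3.89% of the 10225 probes. The quantile scale gave 7.90 and 8.17 for WT IgG, 9.21 and 8.19 for KO-labelled IgG, and 6.67 and 7.84 for blockade, so there the WT array 2 and KO-labelled IgG array 2 nearly met. Fos reached the intensity minimum only through the KO-labelled IgG arrays, where it was brightest. A difference from that group was thus built into its choice, and its values against that group are a description, given without a p-value. Blockade against KO-labelled IgG gave a log2 fold change of -1.44 (SE 0.48, 2.72-fold lower), which did not pass. Blockade against WT IgG gave -0.78, with an interval from -1.96 to 0.40. KO-labelled IgG against WT IgG gave 0.66, from -0.52 to 1.84. When 1 array was left out, the value against KO-labelled IgG lay between -2.03 (without KO-labelled IgG array 2) and -0.87 (without blockade array 1), and that against WT IgG between -1.33 (without blockade array 2) and -0.20 (without blockade array 1). None of these passed. The blockade intensities were below the minimum of 256. The 2 blockade arrays differed by 1.17 on the log2 quantile scale, against a median of 0.138 over all probes.

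Junb, the Jun family member that pairs with Batf in T helper cells, was brightest on the KO-labelled IgG arrays. Its brighter probe read 6723 and 7418 on WT IgG, 10407 and 10267 on KO-labelled IgG, and 6638 and 4948 on blockade arrays. Its weaker probe gave the same order for the KO-labelled IgG arrays, with 112 and 163, 257 on both, and 142 and 132. Both KO-labelled IgG arrays lay above the 4 others in both probes before scaling. So did 13.8% of the 10225 probes among which the brighter one was tested, and 59.6% of the 34988 described below, which let in weak probes such as the other. On the quantile scale the brighter probe gave a log2 fold change of 0.62 for KO-labelled IgG against WT IgG (SE 0.25, limma adjusted p = 0.210, unadjusted 0.0486). It gave -0.62 for blockade against KO-labelled IgG (SE 0.25, limma adjusted p = 0.175). When 1 array was left out these values lay between 0.26 and 0.996 and between -0.99 and -0.26, with the values nearest 0 without KO-labelled IgG array 1 and those furthest from 0 without array 2 of that group. Blockade against WT IgG gave 0.01, with an interval from -0.61 to 0.62, which leaves room for a difference of about that size either way.

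Jund, the Jun family member that is present in resting cells, was also brightest on the KO-labelled IgG arrays before scaling. One probe read 14386 and 13868 on WT IgG, 20764 and 21402 on KO-labelled IgG, and 14613 and 15545 on blockade arrays. The other read 7908 and 10178, 10533 and 10810, and 8409 and 7835. KO-labelled IgG against WT IgG gave a log2 fold change of 0.73 (standard error 0.25, limma adjusted p = 0.167, unadjusted 0.0283) in the first probe and 0.31 in the second, with an interval from -0.25 to 0.86. Blockade against KO-labelled IgG gave -0.38 and -0.20, and blockade against WT IgG 0.35 and 0.11, and every one of these 4 intervals included 0. On the quantile scale this order did not hold: KO-labelled IgG array 2 was below blockade array 2 in the first Jund probe and was the lowest of all 6 arrays in the second, while both KO-labelled IgG arrays stayed above the 4 others in Junb and Fos, as in 14.0% of all probes.

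Batf, which forms the dimer that binds DNA beside Irf4, had 1 low and 1 high KO-labelled IgG array. It read 5229 and 5581 on the WT IgG arrays, 3710 and 12144 on the KO-labelled IgG arrays, and 9986 and 7867 for blockade. The 2 KO-labelled IgG arrays were the lowest and the highest of all 6, and both blockade arrays were above both WT arrays, as in 27.7% of all probes on the quantile scale. On the quantile scale KO-labelled IgG arrays 1 and 2 were at 12.08 and 13.19, WT IgG at 12.45 and 12.15, and blockade at 13.32 and 13.24. Blockade against WT IgG gave a log2 fold change of 0.97 (SE 0.36, 1.96-fold higher, limma adjusted p = 0.231, unadjusted 0.0359). That SE pools all 3 groups, whose standard deviations were 0.21 for WT IgG, 0.79 for KO-labelled IgG and 0.057 for blockade. Blockade against KO-labelled IgG gave 0.64, with an interval from -0.24 to 1.53. Without KO-labelled IgG array 2 that value was 1.21 and passed (limma adjusted p = 0.0414), and without KO-labelled IgG array 1 it was 0.088 (0.785). KO-labelled IgG against WT IgG gave 0.33, from -0.55 to 1.21, with -0.23 without KO-labelled IgG array 2 and 0.90 without array 1. On this scale both blockade arrays were above the 4 others, as in 16.5% of all probes. Batf3, the paralogue known for its part in dendritic cell development, did not reach the scanner's well-above-background call on any array.

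The 2 KO-labelled IgG arrays differed more in the 6 AP-1 probes than in most probes, by 1.11 on the log2 quantile scale in Batf, 1.34 in Jun, 1.02 in Fos, 0.72 in Junb and 0.61 and 0.65 in the 2 probes of Jund. Over all probes the median difference between these arrays was 0.191, and 90% of probes differed by less than 0.650, which 5 of the 6 exceeded. Between the WT IgG arrays the AP-1 probes differed by 0.028 (the second Jund probe) to 0.78 (Jun), with 5 of 6 above the median of 0.169. Between the blockade arrays they differed by 0.081 (Batf) to 1.17 (Fos), with 5 of 6 above the median of 0.138. Jun and Fos were lower, and Batf higher, on KO-labelled IgG array 2 than on array 1 of that group.

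Fosb, Fosl1 and Fosl2, the other Fos family members, were weak and were brighter on the KO-labelled IgG arrays. Fosb, an immediate early gene like Fos, read 27.3 and 40.5 on WT IgG, 117 and 185 on KO-labelled IgG, and 34.6 and 16.2 on blockade arrays in 1 probe, the last not well above background. Its other probe did not reach the scanner's well-above-background call on any array. Fosl1 read 4.5 and 3.9 on WT IgG, 30.4 and 28.4 on KO-labelled IgG, and 3.3 and 4.2 on blockade arrays, and was well above background on the KO-labelled IgG arrays alone. One probe of Fosl2 read 5.0 and 19.2, 138 and 254, and 5.0 and 4.8, also well above background on the KO-labelled IgG arrays alone. The other probe of Fosl2 read 35.9 and 82.7, 154 and 243, and 100.4 and 55.1, and was well above background on all 6. In each of these probes but the second of Fosb the KO-labelled IgG arrays lay above the 4 others, as in 59.6% of the probes that could be tested when weak ones were let in.

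These weak probes were tested on a different scale, with each array's 75th percentile subtracted from its log2 values, over the 34988 probes well above background on both arrays of at least 1 group. On that scale 56.3% of all probes passed between KO-labelled IgG and WT IgG, 56.7% between blockade and KO-labelled IgG and 0% between blockade and WT IgG, so a call on it is near the background. Fosb, well above background on both arrays of each IgG group and on blockade array 1, gave log2 fold changes of 0.94 for KO-labelled IgG against WT IgG (limma adjusted p = 0.0383) and -1.08 for blockade against KO-labelled IgG (0.0262). The first call was lost without either WT array or either KO-labelled IgG array (adjusted p up to 0.140) and with the replicate block (0.0669). The second was lost without either KO-labelled IgG array or without blockade array 2 (up to 0.0981). The second Fosl2 probe gave 0.63 (limma adjusted p = 0.168) and 0.17 (0.680). Fosl1 and the first Fosl2 probe could be tested only because they were well above background on the KO-labelled IgG arrays. A difference was thus built into their choice, and no estimated fold change or p-value is given. On each array where the first Fosl2 probe was dim, the limit was the lowest signal well above background, or the probe's own value where that was higher. The probe was 4.13-fold higher on the KO-labelled IgG arrays than this limit on the WT arrays. It was 3.67-fold higher than the limit on the blockade arrays. On WT array 2 it read 19.2, above the lowest such signal there (17.7), so the limit is not a strict bound. The same choice enters these values, so they describe the signal only. The 12100 tested probes that were dim on both WT arrays were higher on KO-labelled IgG by a median log2 difference of 2.39 on this scale. No such value could be given for Fosl1. Whether the 2 Fosl2 probes differ from each other was not tested. Weak probes in general were brighter on the KO-labelled IgG arrays: of 31515 probes not well above background on both WT arrays, 38.3% were above it on both KO-labelled IgG arrays and 0.517% on both blockade arrays. The summed B cell and myeloid markers given above were highest on these arrays too. The part of either in the values of Fosb, Fosl1 and Fosl2, or of Junb and Jund, was not tested.

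The direction of several members depended on the scale between arrays. That of Jun and Fos between the blockade and IgG groups did not in the settings run, but the size of their differences did. Under the 12 other settings of scale, filter, model or block that left the 6 arrays in, Jun ranged from -1.87 to -0.32 for blockade against KO-labelled IgG and from -2.21 to -1.68 against WT IgG. Fos ranged from -1.98 to -0.43 and from -0.92 to -0.45 under the 11 settings that kept it. The values nearest 0 against KO-labelled IgG, -0.32 for Jun and -0.43 for Fos, came with the 75th percentile. There the blockade and KO-labelled IgG arrays overlapped in both genes, and the intervals ran from -1.69 to 1.05 and from -1.56 to 0.71. The only setting in which Jun passed in these comparisons was the one with no scaling between arrays, where it gave -1.87 against KO-labelled IgG (limma adjusted p = 0.000956) and -2.21 against WT IgG (9.74e-05). Fos passed there against KO-labelled IgG, with -1.98, but that is the group through which it reached the intensity minimum. In that setting the fit gave the 6 AP-1 probes the same SE (0.437), so these p-values do not reflect a probe's own spread between arrays. Against KO-labelled IgG, 783 of 10225 probes passed there, 716 of them lower, with a median of -0.46. Against WT IgG, 182 passed, 134 of them lower, with a median of -0.29. Batf, Junb and Jund turned from higher to lower in KO-labelled IgG against WT IgG with the 75th percentile, at -0.89, -0.65, and -0.62 and -0.95 for the 2 Jund probes. With the 75th percentile Batf passed between blockade and KO-labelled IgG, at 1.95 (limma adjusted p = 0.0136), as did the second Jund probe at 1.16 (0.0297), where 56.7% of all probes passed. Jun gave -1.54 in KO-labelled IgG against WT IgG with the 75th percentile (limma adjusted p = 0.0583) and passed with the authors' deposited values, at -1.35 (0.0291). Those deposited values, which are scaled per array, gave the same direction for these members as the 75th percentile, with 1.77 for Batf between blockade and KO-labelled IgG (limma adjusted p = 0.00206). With them, 8260 of 10225 probes passed in KO-labelled IgG against WT IgG, 8149 of them lower, with a median of -0.86. In blockade against KO-labelled IgG 8245 passed, 8171 of them higher, with a median of 0.91. A call with these values is thus near the background. Between blockade and WT IgG, Batf stayed between 0.71 and 1.07 in the 12 settings and passed in 0 of them.

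**Figure D3:**
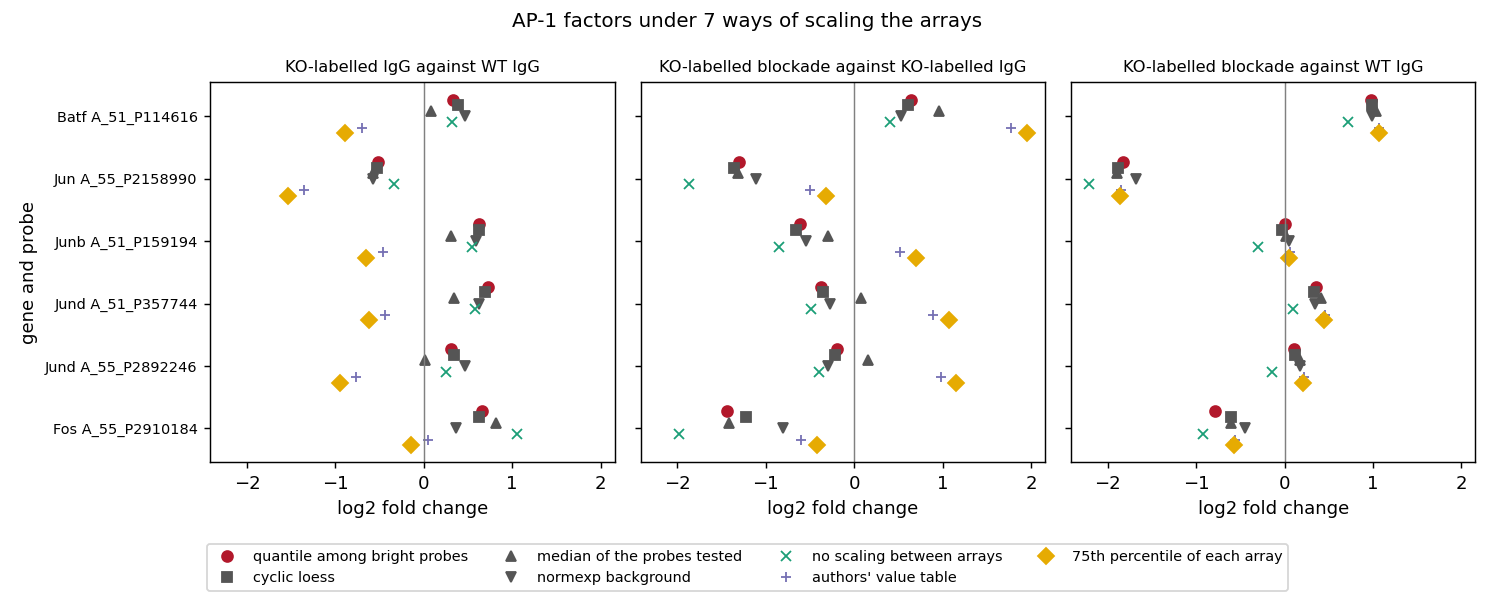
Log2 fold changes of the 6 AP-1 probes under 7 ways of putting the arrays on 1 scale, in the 3 comparisons. Values of 1 probe lay close together for blockade against WT IgG, whereas the 75th percentile and the authors' values moved Batf, Junb and Jund by more than 1 between KO-labelled IgG and the other groups, on the log2 scale. Jun and Fos also moved toward 0 in blockade against KO-labelled IgG with the 75th percentile, to -0.32 and -0.43.

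Other immediate early and handling genes were set beside the members (30 genes, of which 22 passed the intensity minimum, 1 probe each). In blockade against KO-labelled IgG, 17 of the 22 had a negative log2 fold change, where 53.3% of all probes were positive, with a median of -0.46 against 0.03 over all probes. Of these, Nfkbia, the NF-κB inhibitor, fell (-0.84, limma adjusted p = 0.0475), and 0 rose, where 0.900% of all probes passed. In KO-labelled IgG against WT IgG, 17 of the 22 were positive, against 47.6% of all probes, with a median of 0.25 against -0.02. Dusp1, a phosphatase that switches off MAP kinases, rose (2.96, limma adjusted p = 0.0148), as did Nfkbia (0.92, limma adjusted p = 0.0304), where 2.41% of all probes passed. In blockade against WT IgG, 11 were positive and 11 negative, and the median was 0.03. There 0 of 22 passed (0.724% of all probes), with 7 at an unadjusted p under 0.05 (19.0% of all probes). The values of Jun and Fos in blockade against KO-labelled IgG, -1.31 and -1.44, were on the side of this list's median, and so were those of Junb and Jund, while Batf, at 0.64, was not. That of Fos is a description only, since Fos reached the intensity minimum through KO-labelled IgG. In the 2 comparisons with WT IgG, Jun lay on the other side of 0 from the list's median in KO-labelled IgG (-0.52), and at -1.83 in blockade, where the median was 0.03. Fos gave 0.66 and -0.78 there. Both Nfkbia calls turned in direction with the 75th percentile, to -0.39 and 0.55. The Nfkbia call against WT IgG was lost whichever array was left out (limma adjusted p = 0.0598 to 0.140). That against KO-labelled IgG was kept only without KO-labelled IgG array 2, and the adjusted p was up to 0.351 without another. The Dusp1 call was lost without either WT array (limma adjusted p = 0.0879 and 0.0741). The part of handling in the values of Jun and Fos was not tested.

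**Figure D4:**
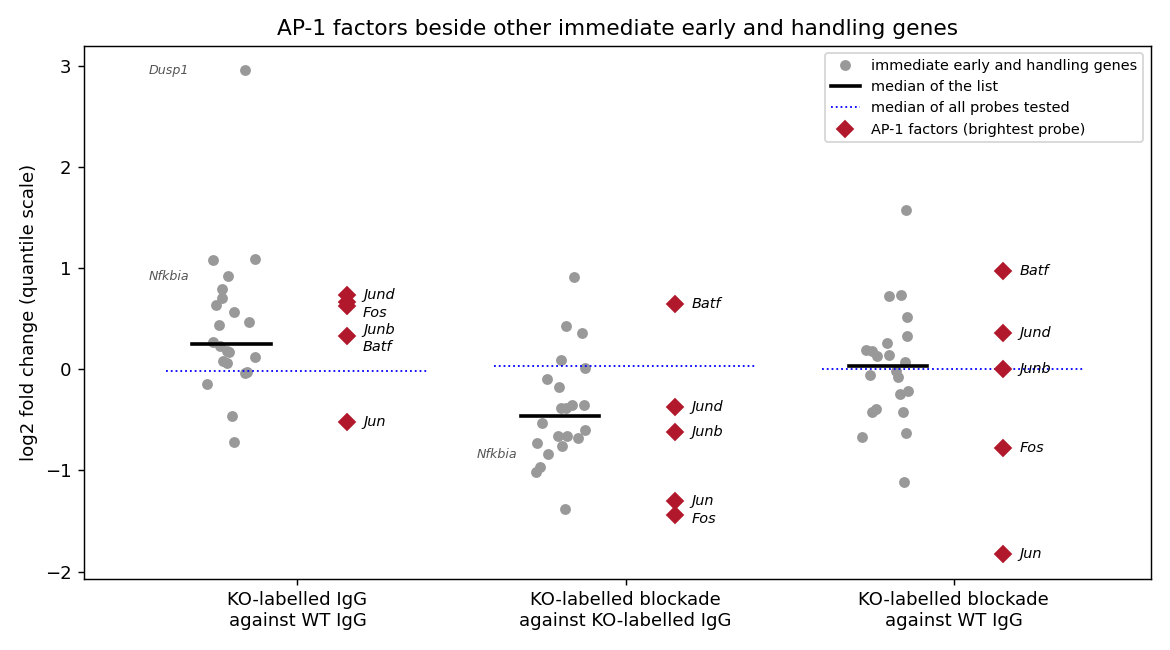
Log2 fold changes (quantile scale) of 22 other immediate early and handling genes (grey points, black bar at their median) and of the 5 AP-1 genes (red diamonds, brightest probe), with the median of all probes as a dotted line. Between blockade and KO-labelled IgG the list's median was -0.46, with Jun at -1.31, Fos at -1.44 and Batf at 0.64; genes that passed limma's test are named.

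Of the MAP kinase genes that lead to AP-1 (27 genes, 20 tested), Spry1 and Dusp1, both feedback inhibitors of the pathway, rose in KO-labelled IgG against WT IgG. Spry1 read 142 and 169 on WT IgG, 1100 and 1802 on KO-labelled IgG, and 798 and 578 on blockade arrays. Its log2 fold changes against WT IgG were 2.81 for KO-labelled IgG (limma adjusted p = 0.00253) and 2.32 for blockade (0.00752). The second call was lost without either blockade array (limma adjusted p = 0.0757 and 0.0998). The other 18 tested genes did not pass in these 2 comparisons, and in blockade against KO-labelled IgG 0 of 20 passed and 9 had an unadjusted p under 0.05, as did 28.6% of all probes. The share of all probes that passed was 2.41% in KO-labelled IgG against WT IgG, 0.724% in blockade against WT IgG and 0.900% in blockade against KO-labelled IgG. The list's medians were 0.01, -0.14 and -0.29 for KO-labelled IgG against WT IgG, blockade against WT IgG and blockade against KO-labelled IgG.

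Among other bZIP genes (24 genes, 11 tested), Bach2, a repressor that competes for AP-1 sites, rose in KO-labelled IgG against WT IgG. It read 175 and 383 on WT IgG, 827 and 1057 on KO-labelled IgG, and 340 and 249 on blockade arrays. Both KO-labelled IgG arrays lay above the 4 others, as in 13.8% of the 10225 probes before scaling. Its log2 fold change of 1.51 (standard error 0.24, limma adjusted p = 0.0468) was lost whichever array was left out, with an adjusted p from 0.0682 to 0.141. It ranged from 0.65 to 1.85 in the 11 other settings with all arrays that kept it, and passed in 7. In blockade against KO-labelled IgG it was -1.04 (limma adjusted p = 0.0781). Maf, a bZIP factor of T helper cells, was just below the intensity minimum, with 659 and 979 on WT IgG, 159 and 516 on KO-labelled IgG, and 141 and 26.1 on blockade arrays. Its WT arrays read highest, but the share of all probes with that order was not counted, so it is given as a description. Batf2, a Batf paralogue, read 23.4 and 32.8, 133 and 610, and 31.1 and 32.6, and Atf3, a stress-induced partner of Jun, did not reach the scanner's well-above-background call on any array. In the 2 comparisons of the blockade arrays 0 of the 11 tested passed, with 2 at an unadjusted p under 0.05 against KO-labelled IgG (28.6% of all probes) and 3 against WT IgG (19.0%). The share of all probes that passed was 2.41% in KO-labelled IgG against WT IgG, 0.900% in blockade against KO-labelled IgG and 0.724% in blockade against WT IgG.

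The partners of AP-1 outside the bZIP family (14 genes, 12 tested) included Irf4 and Irf8, which can both bind beside Batf. Irf8 rose against WT IgG in KO-labelled IgG (1.50, limma adjusted p = 0.0393) and in blockade (1.72, 0.0399), and Irf4 gave 1.44 (0.0182) and 1.40 (0.0211). Under the 12 other settings with all arrays, the values for KO-labelled IgG against WT IgG ranged from 0.48 to 1.68 for Irf8, which passed in 8 of them (adjusted p up to 0.194), and from 0.39 to 1.59 for Irf4, which passed in 10 (up to 0.208). Irf8 is also a gene of B and myeloid cells. The summed B cell markers, 226 to 232 on WT arrays, were 1085 to 5321 on KO-labelled IgG and 386 to 398 on blockade arrays. The summed dendritic cell markers were 7908 to 14223, 26581 to 26738 and 5129 to 7724 in the same order. The part of either in the values of Irf8 was not tested. Runx3, a Runt factor of effector T cells, fell in both (-1.04, limma adjusted p = 0.0237, and -1.55, 0.0121) in its brightest probe. A weaker Runx3 probe, below the intensity minimum, read 71.1 and 108 on WT IgG and 93.1 and 77.2 on KO-labelled IgG arrays. On the blockade arrays it read 28.1 and 25.6. In that probe the KO-labelled IgG arrays lay within the WT IgG range before scaling, and only the blockade arrays were below it. Nfatc2, the NFAT protein that binds with Fos-Jun dimers, fell in blockade against WT IgG (-1.28, limma adjusted p = 0.0442). In blockade against KO-labelled IgG 0 of 12 passed and 7 had an unadjusted p under 0.05, as did 28.6% of all probes, with 11 of 12 negative, where 53.3% of all probes were positive, and a median of -0.48 against 0.03. Of 24 genes known as Batf and Irf4 targets in T cells, 7 were tested. Icos, a costimulatory receptor, fell against WT IgG in KO-labelled IgG (-1.19, limma adjusted p = 0.0338) and in blockade (-1.22, 0.0399), as did Cxcr5, the follicular homing receptor (-1.06, 0.0468, and -1.82, 0.0190). The share of all probes that passed was 2.41% in KO-labelled IgG against WT IgG, 0.724% in blockade against WT IgG and 0.900% in blockade against KO-labelled IgG. The other 5 target genes did not pass in either comparison with WT IgG, and in blockade against KO-labelled IgG 0 of 7 passed, with 3 at an unadjusted p under 0.05 (28.6% of all probes). Each of these 11 calls was lost without either WT array, and the highest limma adjusted p of each when 1 array was left out was between 0.102 and 0.286. In the 12 other settings with all arrays each kept its direction and passed in 7 to 11 of them.

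The probes most like each member were found by centring each probe's 6 quantile-scale values on their mean and taking the root mean square difference over the 6 arrays, among 8297 probes with 1 gene symbol. Those most like Batf were probes of Rras2 (0.15 on the log2 scale), Snhg3 (0.17) and Hnrnpa1 (0.18), against a median of 0.56 over all. Those most like Jun were Gab3 (0.38), Ikzf1 (0.38) and Slc26a11 (0.39), against a median of 0.92. Those most like Fos were Zfp292 (0.30), Ino80d (0.30) and Usp34 (0.32), against a median of 0.78. The closest matches to Jun and Fos were thus further from them than those of Batf were from it. With 6 arrays in 3 groups, the points share the groups and each array's signal strength, and likeness is given as a description.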

How the data were processed

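Gene expression was measured on 6 one-colour Agilent arrays, 2 for each of 3 groups, all on 1 slide and 1 scan. Per the labels' protocols, 0.5 µg of RNA was labelled with Cy3. The scanner files were made with Feature Extraction 11.0.1.1 (protocol GE1_1100_Jul11, array design on mm9), per the file headers. The submitters' processing notes give version 9.1 instead. The deposited processed signal is an intensity from which the software removed background and spatial trend on each array, with no scaling of arrays to each other. The authors' value table is that intensity divided by 1 number per array (relative tolerance 0.001).

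Flagged and control spots were dropped and spots of a probe averaged on the log2 scale. Genes were named through RefSeq accessions. Probes with a mean log2 of at least 8 were quantile-normalised and fitted with limma 3.58.1 in R 4.3.3 (lmFit, eBayes, all 3 groups, Benjamini-Hochberg threshold 0.05). The fit was tested on simulated data. Adjusted p-values are over all probes of a fit. No probe positions are given, and the number of arrays limits the precision. Sensitivity was tested with other scales, normexp (offset 50), filters and blocks, and without each array.

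The members, the gene lists, the scale and the rule for named genes (members, Irf4, list genes that passed, Batf2, Atf3, Bach2, Maf and the 3 probes most like Batf, Jun and Fos) were chosen with earlier results of these data known. The 75th percentile fits of weak members under other models were added after seeing the data. Array 1 and 2 deviations correlated at 0.04, -0.18 and 0.05 between groups, so arrays were not taken as paired. P-values rest on the spread between the 2 arrays of each group, pooled over all 3 groups and moderated over probes by eBayes. The spread of the third group thus enters each comparison. The 2 arrays of a group come from independent experiments per the labels.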

Additional observations from a re-analysis of the deposited data

How the results depend on the processing

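Settings changed 1 choice at a time, except that the 75th percentile was also fitted over another set of probes, those well above background on both arrays of a group. Values are given in the order KO-labelled IgG against WT IgG, blockade against KO-labelled IgG, blockade against WT IgG. AP-1 probes that passed numbered 0, 0 and 0 in the quantile fit. They numbered 3, 5 and 0 with the 75th percentile (Fosl1 and the first Fosl2 probe, dim outside KO-labelled IgG, in the first 2 counts), 2, 3 and 0 with the authors' value table, 0, 2 and 1 with no scaling, and 0 in the 9 remaining settings with all arrays, over probes chosen by mean intensity. On the 75th percentile scale, under the replicate block, the slide row or only the 4 arrays, Fosb passed in 2, 3 and 0 of the 3. Without each array in turn, AP-1 probes that passed in the quantile fit ranged from 0 to 0, 0 to 1 and 0 to 0. All probes that passed numbered 246, 92 and 74. They numbered 19696, 19830 and 0 with the 75th percentile (34988 probes tested), 8260, 8245 and 142 with the value table, and 429, 939 and 148 with the median. With no scaling, blockade gave 783 and 182, and with cyclic loess 27 and 160. The first 2 comparisons gave 90 and 17 with a minimum of 9, and 161 and 28 with 1 probe per gene. The slide row as a block gave 94, 0 and 27, and only the 4 arrays compared gave 5, 0 and 131. With the replicate block the first 2 comparisons gave 68 and 60 for all probes, and on the quantile scale no AP-1 probe passed. The labels do not number the arrays, and the check did not pair them. Without each array in turn, all probes passing ranged from 5 to 151, 0 to 405 and 0 to 128. The array left alone in its group was then assumed to vary like the others.

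Values that changed sign follow. In the first comparison the 75th percentile and the value table gave -0.89 and -0.70 for Batf, -0.65 and -0.47 for Junb, -0.62 and -0.44, and -0.95 and -0.76 for the 2 Jund probes, and -0.39 and -0.20 for Nfkbia. Fos gave -0.14 with the 75th percentile. In the second they gave 0.70 and 0.52 for Junb, 1.07 and 0.89, and 1.16 and 0.98 for Jund, 0.55 and 0.37 for Nfkbia, and 1.11 and 0.93 for Irf4. The median gave 0.072 and 0.16 for Jund and 0.11 for Irf4, and normexp 0.023 for Irf4. In the third, no scaling gave -0.30 for Junb and -0.14 for the second Jund probe, and cyclic loess -0.027 for Junb. The weak Junb probe gave 0.31 in the first comparison with a minimum of 7, against -0.27. Leaving out each array in turn moved signs as follows. In the first comparison Batf ranged from -0.23 to 0.90, Jun from -1.22 to 0.15 and the second Jund probe from -0.019 to 0.65. The weak Junb probe, on the 75th percentile scale, ranged from -0.62 to 0.076. In the second, the second Jund probe ranged from -0.54 to 0.14, Irf4 from -0.11 to 0.035 and the second Fosl2 probe from -0.013 to 0.36. In the third, Junb ranged from -0.10 to 0.11, Fosb from -0.44 to 0.16, Fosl1 from -0.26 to 0.61 and the first Fosl2 probe from -1.41 to 0.10, the last 2 not well above background in either group. The cause was not tested. Of the other values of single genes, 614 kept direction and side of the threshold, 148 no longer passed and 9 newly passed. The medians of the gene lists were counted as the same in 274 cases and as moved in 50. With 2 arrays a group, and weak signals for Fos on the blockade arrays, smaller differences could not be resolved.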
